A study of Mus musculus with 57 samples.

Results

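T-box transcription factors bind DNA through the T-box, a conserved domain named after the mouse gene T (brachyury). The genes described here are the 8 members *Tbx1*, *Tbx2*, *Tbx3*, *Tbx4*, *Tbx5*, *Tbx15*, *Tbx18* and *Tbx20*, found by their gene names among the 56860 genes of the count and TPM tables (TPM is a share of reads corrected for gene length, on a scale with the same sum in every library). All 8 were found, and 9 other T-box genes in the tables served for comparison. *Tbx2* and *Tbx3* mostly repress their targets, whereas *Tbx4* and *Tbx5* mostly activate theirs. In the embryo *Tbx4* and *Tbx5* are known for the outgrowth of lung and limb buds and *Tbx5* and *Tbx20* for the heart. *Tbx1* is known for the pharynx and its muscles, *Tbx15* for trunk and limb muscle and fat, and *Tbx18* for somites and for the mesenchyme of several organs.

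Polyadenylated RNA was sequenced from 57 libraries of mouse embryos on the 129/Sv background, in 7 contexts and 14 groups. Each context held wild-type (wt) embryos and *Hoxa5*-/- embryos homozygous for the null allele *Hoxa5*tm1Rob, in which the coding sequence is interrupted while reads from the remaining exons are still counted. Trachea and diaphragm were taken at embryonic day E15.5, lung at both E12.5 and E15.5, and somites at E10.5 and E12.5. Brown fat from between the shoulder blades (interscapular brown adipose tissue, iBAT) was taken at E18.5. There were 4 libraries per genotype in each context, except that E10.5 somites had only 3 from *Hoxa5*-/- embryos and iBAT had 5 per genotype. What is called somites here was a piece of trunk from neck to upper thorax, from which per the study's methods the spinal cord, forelimbs and chest organs were taken away, and so held more than somites. The total count per library lay between 18369905 and 72991481, with a median of 26953494. The 32 trachea, lung and diaphragm libraries were read at one centre (100 bases, single-end) and the 25 somite and iBAT libraries at another (150 bases, paired-end), so a difference between these sets cannot be told apart from a difference between centres, and none was tested. The libraries of a group are biological replicates per the study's methods, and p-values measure the spread between these libraries. The iBAT library names begin with a number that wt and *Hoxa5*-/- libraries share (replicates 4 and 5 of both genotypes share 1), and what it stands for is not given in the sources used here.

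*Hoxa5* itself was lower in every *Hoxa5*-/- library than in every wt library of its context. Its level went from 95.6 ± 14.1 TPM (SD, n = 4) in wt to 29.5 ± 6.87 (n = 4) in *Hoxa5*-/- trachea, from 275 ± 30.3 to 71.1 ± 4.35 in lung at E12.5, and from 160 ± 12.98 to 42.0 ± 7.82 in lung at E15.5. It went from 72.2 ± 16.2 to 20.2 ± 5.55 TPM in diaphragm, from 186 ± 33.7 (n = 4) to 102 ± 14.4 (n = 3) in somites at E10.5, from 103 ± 8.83 to 33.7 ± 6.72 in somites at E12.5, and from 48.3 ± 2.75 to 12.2 ± 2.52 (n = 5 each) in iBAT.

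The labelled tissues carried their markers, though most lists were not limited to 1 tissue. The summed level of 5 lung epithelium markers (*Nkx2-1*, *Sftpc*, *Sftpb*, *Sftpd*, *Id2*) was 354 to 446 TPM in lung at E12.5 and 1616 to 9281 TPM at E15.5, with 252 to 618 TPM in trachea. Cartilage markers summed to 943 to 4001 TPM in trachea and 1563 to 2585 TPM in somites at E12.5, and skeletal muscle markers to 8980 to 23820 TPM in diaphragm. Somite markers summed to 303 to 493 TPM in somites at E10.5 and 196 to 226 TPM at E12.5. Neural markers, led by Tubb3, a tubulin of neurons, summed to 682 to 1171 TPM in the E10.5 somite libraries, above the somite list. Brown adipocyte markers summed to 11853 to 18396 TPM in iBAT against at most 74.3 TPM in any other library.

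Some libraries stood apart, and values without them follow the results that they moved most. Wt diaphragm replicate 3 held 457 TPM of the lung epithelium list, 322 TPM of it from *Sftpc*, against 27.05 to 47.9 TPM in the other 3 wt libraries. Its liver markers, at 8531 TPM, were above the 1510 to 1859 TPM of those 3, while the *Hoxa5*-/- diaphragms spanned 346 to 10506.5 TPM. *Hoxa5*-/- trachea replicate 3 held 2557 TPM of the skeletal muscle list against 37.0 to 489 TPM in the other 7 trachea libraries, and 4001 TPM of the cartilage list against at most 1665 TPM. *Hoxa5*-/- diaphragm replicate 3 held 366 TPM of the cartilage list against at most 34.0 TPM in the other 7 diaphragm libraries. *Hoxa5*-/- lung replicate 3 at E15.5 held 448 TPM of liver markers against at most 42.1 TPM in the other 7. Wt trachea replicate 3 held 394 TPM of the thymus, thyroid and parathyroid list, 350 TPM of it from *Tg*, against at most 3.11 TPM, and 618 TPM of the lung epithelium list against at most 363 TPM. In *Hoxa5*-/- lung at E15.5, replicate 4 had 36.7% of its TPM in its 10 most abundant genes, led by the ribosomal RNA gene *Rn18s-rs5*, against 7.52% to 8.84% in the other 7 libraries. *Hoxa5*-/- lung replicate 1 at E12.5 held 106985 TPM of blood genes against 13506 to 25818 TPM in the other 7 libraries.

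In wt tissue the lung held the highest summed T-box level. The 8 members together reached 1095 TPM in lung at E15.5, 1006 TPM in lung at E12.5, 488 TPM in trachea, 341 TPM in diaphragm, 320 TPM in somites at E12.5, 71.4 TPM in somites at E10.5 and 32.8 TPM in iBAT. The member with the largest share also differed between contexts. *Tbx2* made up 51.7% of the summed level in lung at E15.5, 47.3% at E12.5, 34.8% in trachea and 34.9% in iBAT, *Tbx15* 37.7% in diaphragm and 39.1% in somites at E12.5, and *Tbx1* 36.6% in somites at E10.5. The number of members with a mean of at least 1 TPM was 7 in trachea, lung at E15.5, diaphragm and both somite stages, 6 in lung at E12.5 and 5 in iBAT.

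**Figure D1:**
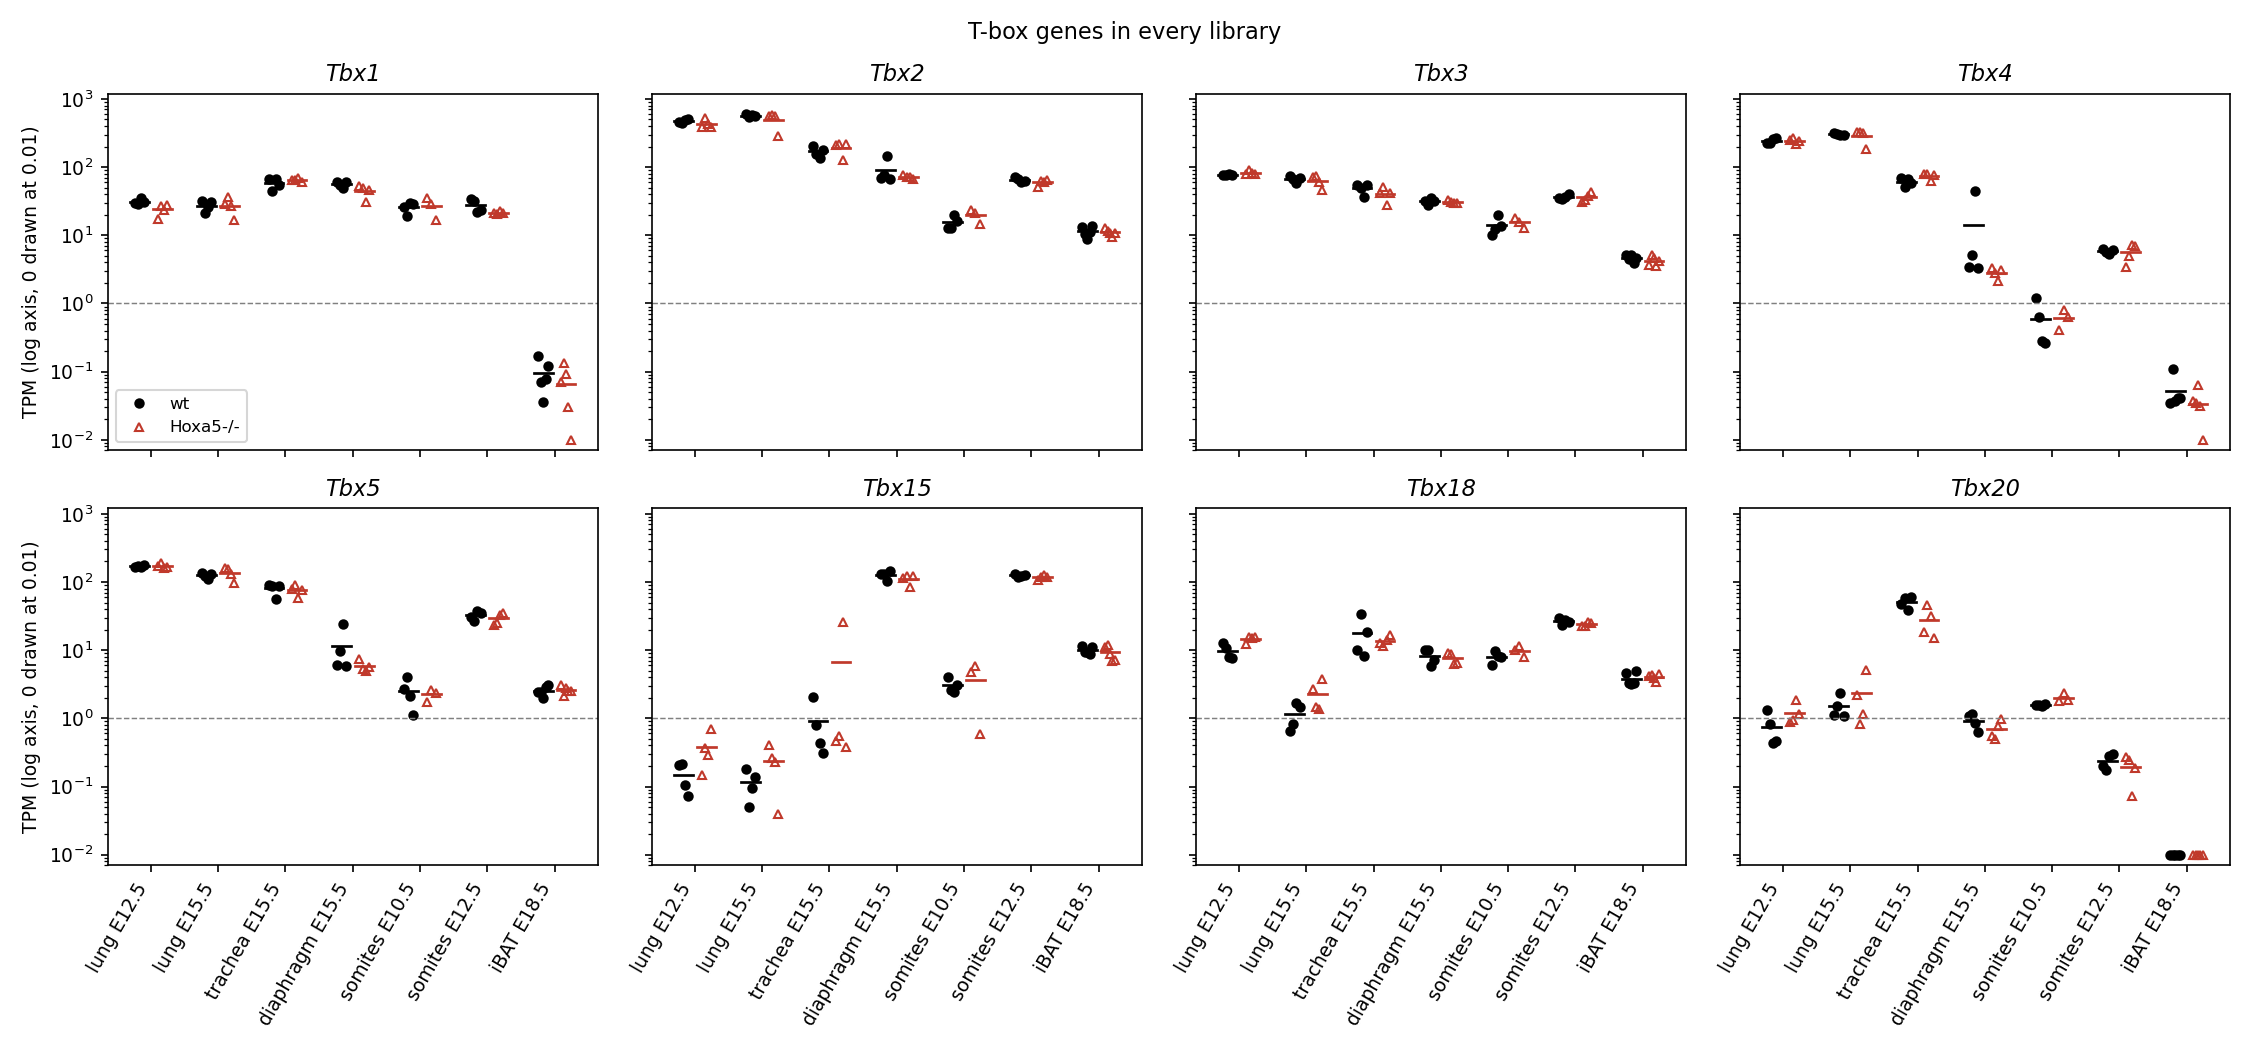
Level of each T-box member in every library, in TPM on a log axis, by context. Black circles are wt and red open triangles *Hoxa5*-/- libraries, bars are group means, the dashed line marks 1 TPM, and values of 0.01 TPM or less are drawn at 0.01. *Tbx2*, *Tbx4* and *Tbx5* stand highest in lung, *Tbx15* in diaphragm and E12.5 somites, and *Tbx20* in trachea, while the 2 genotypes of a context mostly lie over each other.

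*Tbx2* (GRCm39 chr11:85723377-85732774, plus strand) and *Tbx4* (chr11:85777248-85806923, plus) are neighbours separated by 44.5 kb. *Tbx3* (chr5:119808734-119822789, plus) and *Tbx5* (chr5:119970733-120023284, plus) are separated by 147.9 kb. *Tbx1* (chr16:18399729-18409421, minus) and *Tbx15* (chr3:99147697-99261575, plus) are on chromosomes of their own, and *Tbx18* (chr9:87584853-87613313, minus) and *Tbx20* (chr9:24629434-24685599, minus) lie far apart on one chromosome. All are annotated as protein-coding. The opposite-strand noncoding gene *Tbx3os1* shares 258 exon bases with *Tbx3* and had a wt mean of 45.4 TPM in trachea, 31.7 TPM in lung at E15.5, 21.7 TPM in lung at E12.5 and 17.6 TPM in somites at E12.5. *D030062O11Rik* shares 970 exon bases with *Tbx18* on the opposite strand. The strand setting of the counting is not given in the sources used here, so reads from these overlaps cannot be told apart, and *Tbx3* and *Tbx18* levels are uncertain to that extent.

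*Tbx2* and *Tbx4*, the neighbours on chromosome 11, ranked the contexts alike. Wt *Tbx2* had 595, 543, 575 and 553 TPM in the 4 lung libraries at E15.5 and 463, 445, 495 and 500 TPM at E12.5. The ages did not overlap. Trachea followed with 170 ± 28.3 TPM (SD, n = 4), diaphragm with 90.0 ± 38.0, somites at E12.5 with 65.3 ± 4.78, somites at E10.5 with 15.4 ± 3.46 and iBAT with 11.4 ± 2.11 (n = 5). Libraries overlapped between trachea and diaphragm, between diaphragm and somites at E12.5, and between somites at E10.5 and iBAT. *Tbx4* had 321, 306, 298 and 299 TPM in wt lung at E15.5 and 227, 222, 254 and 265 TPM at E12.5, again without overlap. It then dropped to 61.2 ± 8.66 TPM in trachea, 14.001 ± 20.03 in diaphragm, 5.85 ± 0.483 in somites at E12.5, 0.597 ± 0.448 in somites at E10.5 and 0.0524 ± 0.0311 in iBAT, and of these neighbours only diaphragm and E12.5 somites overlapped. The diaphragm mean came from 1 library: wt diaphragm *Tbx4* was 3.45, 5.19, 44.0 and 3.35 TPM, with the high value in the library that also held lung epithelium markers. In iBAT *Tbx4* rested on 7 reads over 5 wt libraries and 5 reads over 5 *Hoxa5*-/- libraries.

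*Tbx5*, a partner of *Tbx4* in lung bud outgrowth, and *Tbx3*, a repressor related to *Tbx2*, were highest at the earlier lung age. Wt *Tbx5* had 165, 172, 165 and 175 TPM in lung at E12.5 and 137, 123, 112 and 130 TPM at E15.5, with no overlap. Its mean was 80.3 ± 16.5 TPM in trachea, 32.4 ± 4.79 in somites at E12.5, 11.5 ± 8.60 in diaphragm, 2.56 ± 0.427 in iBAT and 2.50 ± 1.20 in somites at E10.5, with overlap only between the last pair. *Tbx3* spanned a smaller range, at 76.8 ± 1.81 TPM in lung at E12.5, 66.7 ± 6.63 at E15.5, 48.6 ± 8.43 in trachea, 36.3 ± 2.72 in somites at E12.5, 31.6 ± 3.06 in diaphragm, 14.1 ± 4.22 in somites at E10.5 and 4.66 ± 0.492 in iBAT. Trachea overlapped with E12.5 somites, and these with diaphragm.

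*Tbx1* had 67.5, 44.6, 66.2 and 53.9 TPM in wt trachea and 59.6, 54.9, 49.9 and 59.4 TPM in wt diaphragm, and these overlapped. Lung at E12.5 (31.2 ± 2.97 TPM), somites at E12.5 (27.8 ± 5.82), lung at E15.5 (27.1 ± 4.84) and somites at E10.5 (26.1 ± 4.78) formed a lower level at which each context overlapped with the next. In iBAT *Tbx1* was at 0.0950 ± 0.0519 TPM, from 13 reads over 5 libraries.

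*Tbx15* and *Tbx18* come from one branch of the family and were distributed differently. Wt *Tbx15* had 133, 133, 102 and 146 TPM in diaphragm and 131, 120, 123 and 127 TPM in somites at E12.5. These overlapped, and were followed by iBAT at 10.1 ± 1.17 TPM (n = 5), somites at E10.5 at 3.07 ± 0.738, trachea at 0.899 ± 0.791, and lung at 0.150 ± 0.0706 (E12.5) and 0.116 ± 0.0557 (E15.5). In wt lung at E15.5 *Tbx15* rested on 2 to 8 reads per library. *Tbx18* was highest in somites at E12.5 (26.7 ± 2.88 TPM), trachea (17.7 ± 11.7), lung at E12.5 (9.72 ± 2.35), diaphragm (8.34 ± 2.08) and somites at E10.5 (8.01 ± 1.55), each overlapping with the next. Levels in iBAT (3.84 ± 0.821) and lung at E15.5 (1.15 ± 0.488) were lower, and apart from the contexts above them.

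*Tbx20*, a cardiac transcription factor, was high in 1 context. It had 47.2, 57.8, 39.4 and 60.1 TPM in wt trachea, whereas no other wt library of any context exceeded 2.38 TPM. Means were 1.58 ± 0.0578 TPM in somites at E10.5, 1.53 ± 0.598 in lung at E15.5, 0.928 ± 0.239 in diaphragm, 0.759 ± 0.419 in lung at E12.5 and 0.239 ± 0.0596 in somites at E12.5. In iBAT *Tbx20* had 0 reads in the 5 wt libraries, whose totals summed to 98298706 counts, which allows up to 0.0305 CPM (3 counts scaled to that total, counting error only). The trachea libraries also carried heart genes: the cardiac muscle list (*Nppa*, *Myl7*, *Myl4*, *Myh6*, *Sln*, *Nkx2-5*, *Bmp10*) summed to 3222 to 5896 TPM in wt trachea and to 60.1 to 228 TPM in wt lung at E15.5. At least 5 of its 7 genes exceeded 1 TPM in each trachea library, *Myl7* was the most abundant at 1210 to 4009 TPM, and *Bmp10* was at 0 in wt replicate 1 and *Hoxa5*-/- replicate 1. *Tbx20* per 1000 TPM of this list was 9.81 to 12.2 TPM in wt trachea and 10.4 to 18.7 TPM in wt lung at E15.5. It was 14.2 to 31.1 TPM in wt lung at E12.5 and 63.1 to 74.6 TPM in wt somites at E10.5, but 0.580 to 1.57 TPM in wt somites at E12.5. In wt diaphragm, where the cardiac list summed to 986 to 1658 TPM, it was 0.407 to 0.926 TPM. Skeletal muscle markers there summed to 11694 to 23820 TPM. The part of heart tissue in the cardiac list of diaphragm and E12.5 somites was not tested. The part of heart tissue in the trachea level of *Tbx20* was not tested.

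Because *Tbx4* and *Tbx20* were ranked in opposite ways by lung and trachea, the 250 bases before their start sites are shown, from RefSeq on GRCm38.p6 (chr11:85896515-85896764, plus strand, for *Tbx4* and chr9:24774304-24774553, minus strand, for *Tbx20*). Capitals mark matches to the motifs searched.
Tbx4: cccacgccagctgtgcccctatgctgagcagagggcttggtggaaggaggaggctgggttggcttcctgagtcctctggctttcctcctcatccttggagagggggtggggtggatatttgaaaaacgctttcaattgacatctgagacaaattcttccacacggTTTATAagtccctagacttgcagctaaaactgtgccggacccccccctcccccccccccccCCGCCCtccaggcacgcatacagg
Tbx20: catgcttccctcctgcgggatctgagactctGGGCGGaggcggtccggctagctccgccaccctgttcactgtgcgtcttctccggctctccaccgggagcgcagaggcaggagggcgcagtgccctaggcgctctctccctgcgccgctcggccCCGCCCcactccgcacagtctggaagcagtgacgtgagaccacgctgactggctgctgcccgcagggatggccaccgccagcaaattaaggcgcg
Both strands of the 32851 RefSeq windows of this length were searched for 4 motifs that do not overlap here. The letters TATAAA (the TATA box) were in 12.4% of the windows. The letters GGGCGG (the GC box) were in 32.7%. The homeodomain core TAATTA was in 4.84%. The T-box core AGGTGTGA was in 1.12%. The *Tbx4* window held a TATA box on the opposite strand, read here as TTTATA, and a GC box on the opposite strand, 85 and 24 bases before the start. The *Tbx20* window held GC boxes 219 and 95 bases before the start, the second on the opposite strand. Neither held the homeodomain or the T-box letters, which says only that these letters are not in these windows. Of the 8 members, *Tbx1*, *Tbx4*, *Tbx18* and *Tbx20* matched an entry, and a matched *Tbx1* window held 1 GC box and the *Tbx18* window no motif. G and C made up 58.4% of the *Tbx4* and 68.8% of the *Tbx20* window against a median of 52.4%.

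The question of how the members differ between wt tissues and ages was then tested within each centre's set. A gene was tested where a group had a mean of at least 1 TPM, and called where edgeR's quasi-likelihood test gave a Benjamini-Hochberg adjusted p under 0.05 and the fitted difference reached 1.5-fold. Fold changes are fitted to counts scaled by the trimmed mean of M-values (TMM) and given on the log2 scale with their standard error (SE). In bulk tissue, fewer cells of a type and less RNA per cell cannot be told apart. Shares of all genes beside the tissue and age comparisons are those of the wt fits. Those of the same comparisons in *Hoxa5*-/- libraries are not given here.

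In wt lung from E12.5 to E15.5, *Tbx18* fell, *Tbx20* was higher without passing edgeR's adjustment, and the other 5 members differed by less than 1.5-fold. Of 7 members tested 1 was called, against 24.6% of all genes (9.15% lower, 15.4% higher). *Tbx18* had 12.6, 10.7, 7.98 and 7.65 TPM at E12.5 and 0.660, 0.816, 1.67 and 1.45 TPM at E15.5, a log2 change of -3.15 (SE 0.30, adjusted p = 1.88e-05), 8.89-fold lower. Every E15.5 library was below every E12.5 library. *Tbx5* (-0.46, SE 0.06, adjusted p = 0.000174), *Tbx3* (-0.24, adjusted p = 0.0116), *Tbx4* (0.30, adjusted p = 0.00118) and *Tbx2* (0.22, adjusted p = 0.00447) passed the p threshold below the fold minimum. *Tbx20* (0.95, SE 0.38, 1.93-fold, adjusted p = 0.0607) and *Tbx1* (-0.23, adjusted p = 0.128) missed it, and DESeq2 called *Tbx20* (adjusted p = 0.0265). Mesothelial markers (*Wt1*, *Msln*, *Upk3b*, *Upk1b*, *Lrrn4*), of cells that line the lung, summed to 136 to 152 TPM at E12.5 and 72.0 to 93.6 TPM at E15.5, without overlap. Neural markers were lower by more, from 14.2 to 53.6 TPM to 3.13 to 4.84 TPM, and cartilage and epidermis markers were lower as well, while lung epithelium (354 to 386 against 3239 to 9165 TPM), smooth muscle, endothelial, cardiac muscle, brown adipocyte and somite markers were higher, all without overlap. The part of these in the *Tbx18* and *Tbx20* values was not tested. The median log2 change was -0.23 over the members and -0.01 over all genes tested. In the *Hoxa5*-/- libraries *Tbx18* changed by -2.55 and was again called.

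Between wt trachea and lung at E15.5, 6 of 7 tested members were called, against 30.2% of all genes: *Tbx20*, *Tbx18* and *Tbx1* were higher in trachea (20.1% of all genes) and *Tbx2*, *Tbx4* and *Tbx5* lower (10.1%). *Tbx20* differed by 5.03 (SE 0.27, adjusted p = 1.69e-06), a 32.8-fold higher level, and *Tbx18* by 3.93 (SE 0.52, adjusted p = 0.000271), 15.3-fold. *Tbx18* was uneven among wt tracheas, at 10.2, 34.1, 8.35 and 18.3 TPM, yet all lay above the lung libraries. Mesothelial markers (94.0 to 291 TPM in trachea, 72.0 to 93.6 TPM in lung) and limb and girdle mesenchyme markers (121 to 219 and 46.5 to 60.3 TPM) were higher as well. So were neural markers (97.1 to 196 and 3.13 to 4.84 TPM) and cardiac muscle markers (3222 to 5896 and 60.1 to 228 TPM). Cartilage, skeletal muscle, epidermis, brown adipocyte and thymus, thyroid and parathyroid markers were higher too. Lung epithelium and endothelial markers were lower, and all these lists differed without overlap. The part of these tissues in the *Tbx18* value was not tested. *Tbx1* was higher by 1.06 (SE 0.16, adjusted p = 0.000634). *Tbx4* was lower by -2.36 (SE 0.10, adjusted p = 4.70e-07), 5.12-fold, *Tbx2* by -1.77 (SE 0.11, adjusted p = 3.48e-06) and *Tbx5* by -0.68 (SE 0.15, adjusted p = 0.00422). The *Tbx5* difference fell to -0.53 (adjusted p = 0.000494), under the fold minimum, without wt trachea replicate 3. *Tbx3* was at -0.49 (adjusted p = 0.0116), also under the fold minimum. In *Hoxa5*-/- libraries the same 6 differences were called, at 3.27 for *Tbx20*, 2.32 for *Tbx18* and -2.08 for *Tbx4*, and *Tbx3* (-0.80) and *Tbx15* (4.69) were called in addition. The *Tbx15* value rests on *Hoxa5*-/- trachea replicate 3, with 25.5 TPM against 0.382 to 0.544 TPM in the other 3, without which no group would have reached 1 TPM.

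The diaphragm set *Tbx15* against the lung members. Between wt diaphragm and lung at E15.5, 7 of 8 members were called, against 36.4% of all genes, with 3 higher in diaphragm (20.9% of all genes) and 4 lower (15.6%). *Tbx15* differed by 10.36 (SE 0.24, adjusted p = 7.07e-09), a fitted 1314-fold whose size rests on the few lung reads, followed by *Tbx18* at 3.19 (SE 0.33, adjusted p = 3.54e-05) and *Tbx1* at 1.36 (SE 0.14, adjusted p = 3.20e-05). Lower in diaphragm were *Tbx4* at -4.17 (SE 0.81, adjusted p = 0.00169), *Tbx5* at -3.17 (SE 0.41, adjusted p = 0.000140), *Tbx2* at -2.36 (SE 0.23, adjusted p = 2.26e-05) and *Tbx3* at -0.77 (SE 0.10, adjusted p = 0.000124). Without wt diaphragm replicate 3, *Tbx4* was at -5.93 and *Tbx5* at -3.79. *Tbx20* was at -0.42 (adjusted p = 0.247) and was the member not called. In the *Hoxa5*-/- libraries it was at -1.75 (adjusted p = 0.0476) and was called, as were the other members. That value includes *Hoxa5*-/- lung replicate 4, with 5.18 TPM of *Tbx20*.

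Between wt diaphragm and trachea, 3 of 8 members were called, against 32.5% of all genes, with 1 higher in diaphragm (14.1% of all genes) and 2 lower (18.4%). *Tbx15* was higher in diaphragm by 7.50 (SE 0.44, adjusted p = 4.15e-06), and *Tbx20* lower by -5.50 (SE 0.22, adjusted p = 6.60e-07), 45.2-fold. *Tbx5* was lower by -2.53 (SE 0.43, adjusted p = 0.00119). *Tbx4* (-1.86, SE 0.78, adjusted p = 0.0783) and *Tbx2* (-0.63, SE 0.24, adjusted p = 0.0558) were moved by wt diaphragm replicate 3: without it both were called by edgeR, at -3.58 (adjusted p = 4.53e-06) and -0.89 (adjusted p = 0.000469), and DESeq2 called *Tbx2* with all libraries (adjusted p = 0.0250). Of the 8 fits that leave out 1 library, edgeR called *Tbx4* in 1 and *Tbx2* in 2. *Tbx1* was at 0.25 (adjusted p = 0.191), and at 0.37 without that library.

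**Figure D2:**
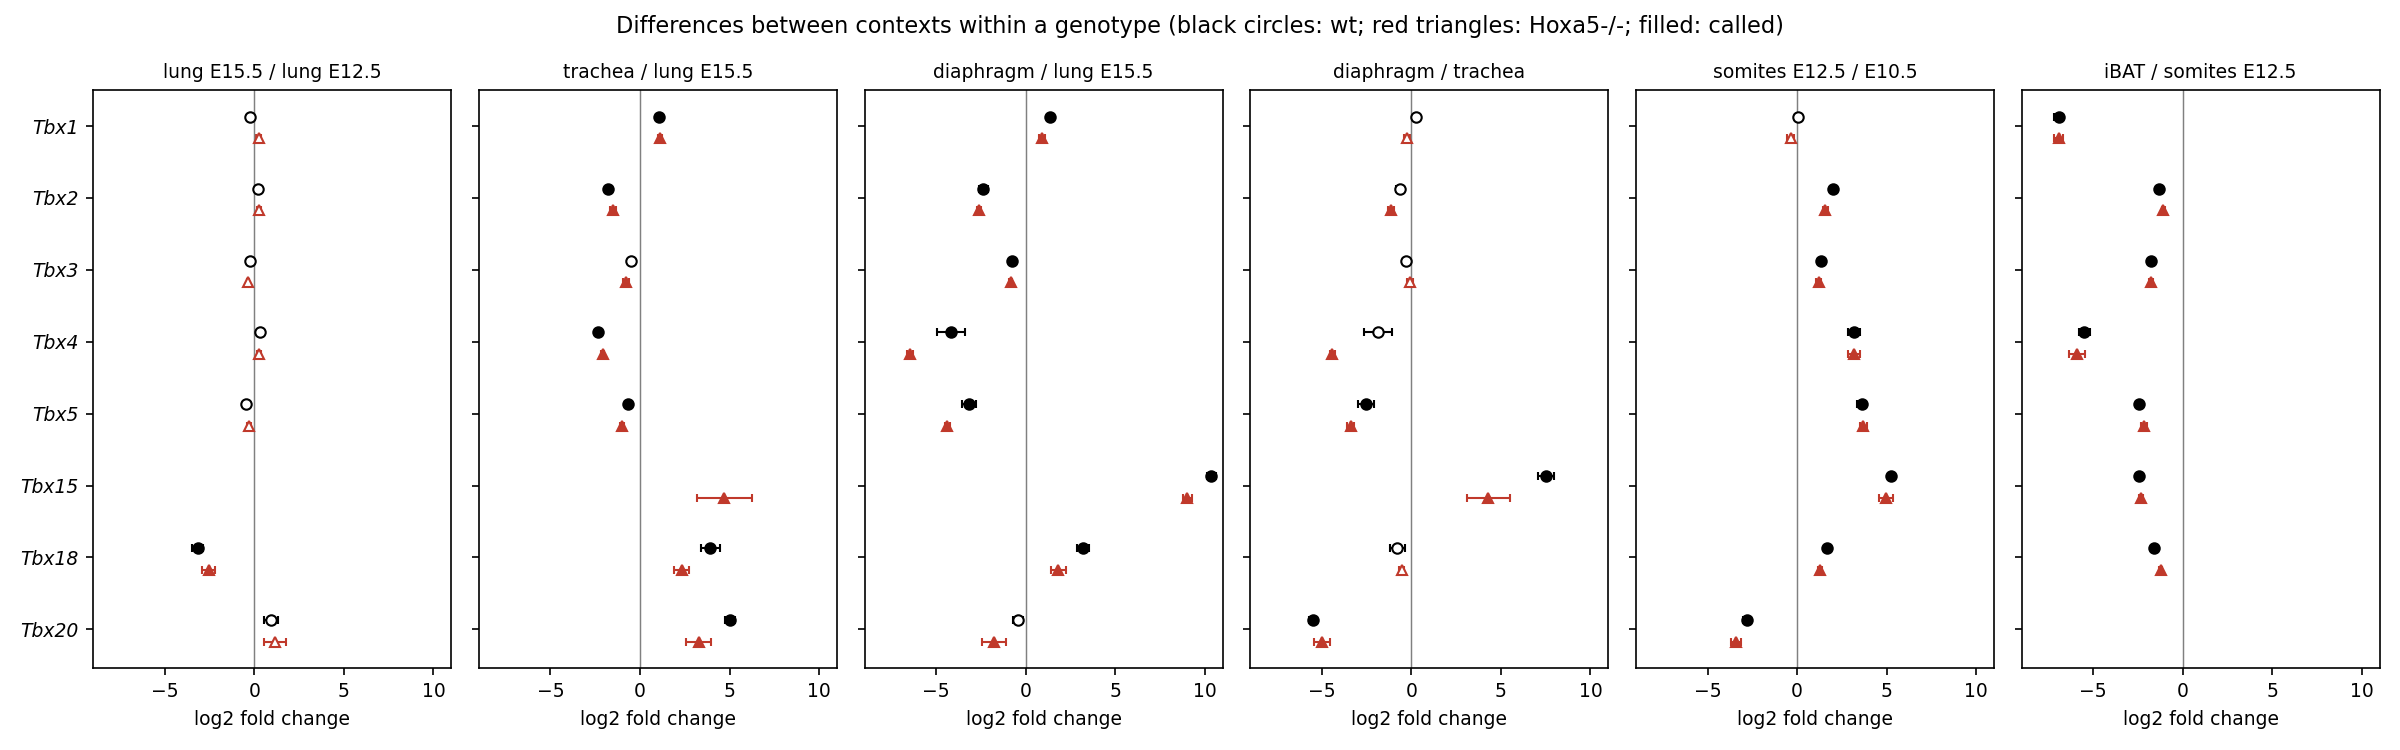
Log2 fold change with its SE for each member in the 6 tissue and age comparisons. Black circles are wt libraries, red triangles *Hoxa5*-/- libraries, and filled symbols mark calls. *Tbx15* (7.50) and *Tbx20* (-5.50) give the largest differences between wt diaphragm and trachea, in opposite directions, and from E10.5 to E12.5 the somite points of *Tbx20* and the *Hoxa5*-/- point of *Tbx1* (-0.35) lie below 0, the wt point of *Tbx1* (0.03) close to it and the rest above.

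In wt somites, 6 members rose from E10.5 to E12.5 and 1 fell, 7 of 8 called against 42.6% of all genes (24.1% higher, 18.4% lower). *Tbx15* rose the most, from 4.09, 2.65, 2.43 and 3.11 TPM to 131, 120, 123 and 127 TPM, a log2 change of 5.27 (SE 0.15, adjusted p = 1.07e-11), 38.6-fold. The stages lay far apart in every library. *Tbx5* rose by 3.60 (SE 0.27, adjusted p = 6.79e-08), 12.1-fold, and *Tbx4* by 3.17 (SE 0.35, adjusted p = 3.00e-06). *Tbx4* had 1.22, 0.628, 0.280 and 0.260 TPM at E10.5 and 6.34, 5.70, 5.24 and 6.10 TPM at E12.5, again far apart. *Tbx2* rose by 2.02 (SE 0.11), *Tbx18* by 1.67 (SE 0.13) and *Tbx3* by 1.31 (SE 0.14), with adjusted p of at most 2.09e-06. *Tbx20* fell from 1.59, 1.58, 1.51 and 1.65 TPM to 0.199, 0.177, 0.283 and 0.296 TPM, a change of -2.80 (SE 0.20, adjusted p = 3.61e-08), 6.95-fold. Marker lists moved between the stages as well, without overlap in wt. Skeletal muscle markers went from 113 to 253 TPM at E10.5 to 1759 to 2691 TPM at E12.5, cartilage markers from 242 to 371 TPM to 1838 to 2585 TPM, limb and girdle mesenchyme markers from 57.6 to 83.8 TPM to 185 to 224 TPM and epidermis markers from 25.9 to 40.1 TPM to 353 to 387 TPM. The cardiac muscle list, also high in wt diaphragm (986 to 1658 TPM), went from 21.2 to 25.5 TPM to 189 to 305 TPM. Smooth muscle markers went from 139 to 170 TPM to 696 to 770 TPM and endothelial markers from 133 to 165 TPM to 276 to 316 TPM. Brown adipocyte markers went from 7.45 to 10.3 TPM to 17.8 to 22.1 TPM. Neural tube markers went down, from 686 to 1078 TPM to 143 to 374 TPM, and the somite and lung epithelium lists were lower too. The part of these tissues in the T-box changes was not tested. *Tbx1* stood at 0.03 (95% interval -0.29 to 0.35, adjusted p = 0.880). The median was 1.85 over the members and -0.04 over all genes. The *Hoxa5*-/- libraries gave the same 7 calls, with *Tbx15* at 4.97, *Tbx5* at 3.69 and *Tbx20* at -3.39.

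Against wt somites at E12.5, iBAT at E18.5 was lower in all 7 members tested, where 66.3% of all genes were called, 35.3% lower and 31% higher. *Tbx1* differed by -6.94 (SE 0.24, adjusted p = 1.06e-12), *Tbx4* by -5.50 (SE 0.29), *Tbx5* by -2.46 (SE 0.13) and *Tbx15* by -2.42 (SE 0.07, adjusted p = 8.32e-14). *Tbx3* was at -1.75, *Tbx18* at -1.60 and *Tbx2* at -1.31 (SE 0.09). The median of all genes was itself at -0.16 with TMM and -0.13 with DESeq2's size factors, so each member was lower by more than that shift. In all 7 the TPM means given above lie further apart than these fitted differences, which rest on counts scaled by TMM. Age and tissue changed together here and cannot be told apart.

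Between *Hoxa5*-/- and wt, edgeR called no member in any context when each was fitted alone. Of the 56 pairs of member and context 48 were tested. Of these edgeR called 0, 9 had an unadjusted p under 0.05, and DESeq2 called 1 (*Tbx18* in lung at E12.5). Among all tested genes edgeR called 0.0156% in trachea, 0.0798% in the E12.5 lung, 0.124% in the E15.5 lung, 0.594% in diaphragm, 0.0215% in E10.5 somites, 0.00529% in E12.5 somites and 0.00657% in iBAT. The DESeq2 shares, in this order of contexts, were 0.271%, 0.462%, 0.467%, 2.25%, 0.0969%, 0.0106% and 0.0263%. An unadjusted p under 0.05 was found for 2 of 8 members in trachea (6.7% of all genes), 2 of 7 in the E12.5 lung (8.01%), 2 of 7 in the E15.5 lung (6.32%), 2 of 7 in diaphragm (13%), 0 of 7 in E10.5 somites (12.7%), 1 of 7 in E12.5 somites (3.24%) and 0 of 5 in iBAT (2.47%). The median log2 change over the tested members was 0.04 in trachea, 0.04 in lung at E12.5, 0.08 in lung at E15.5, -0.33 in diaphragm, 0.19 in somites at E10.5, -0.13 in somites at E12.5 and 0.01 in iBAT, where the median over all genes stayed between -0.01 and 0.00. Wt and *Hoxa5*-/- libraries did not overlap for *Tbx1* in lung at E12.5 (4.09% of all genes there), for *Tbx4* in diaphragm (6.87%) and for *Tbx20* in somites at E10.5 (7.37%), and overlapped in all other tests. Of all genes 3.74% did not overlap in trachea, 2.96% in the E15.5 lung, 2.51% in E12.5 somites and 0.316% in iBAT.

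**Figure D3:**
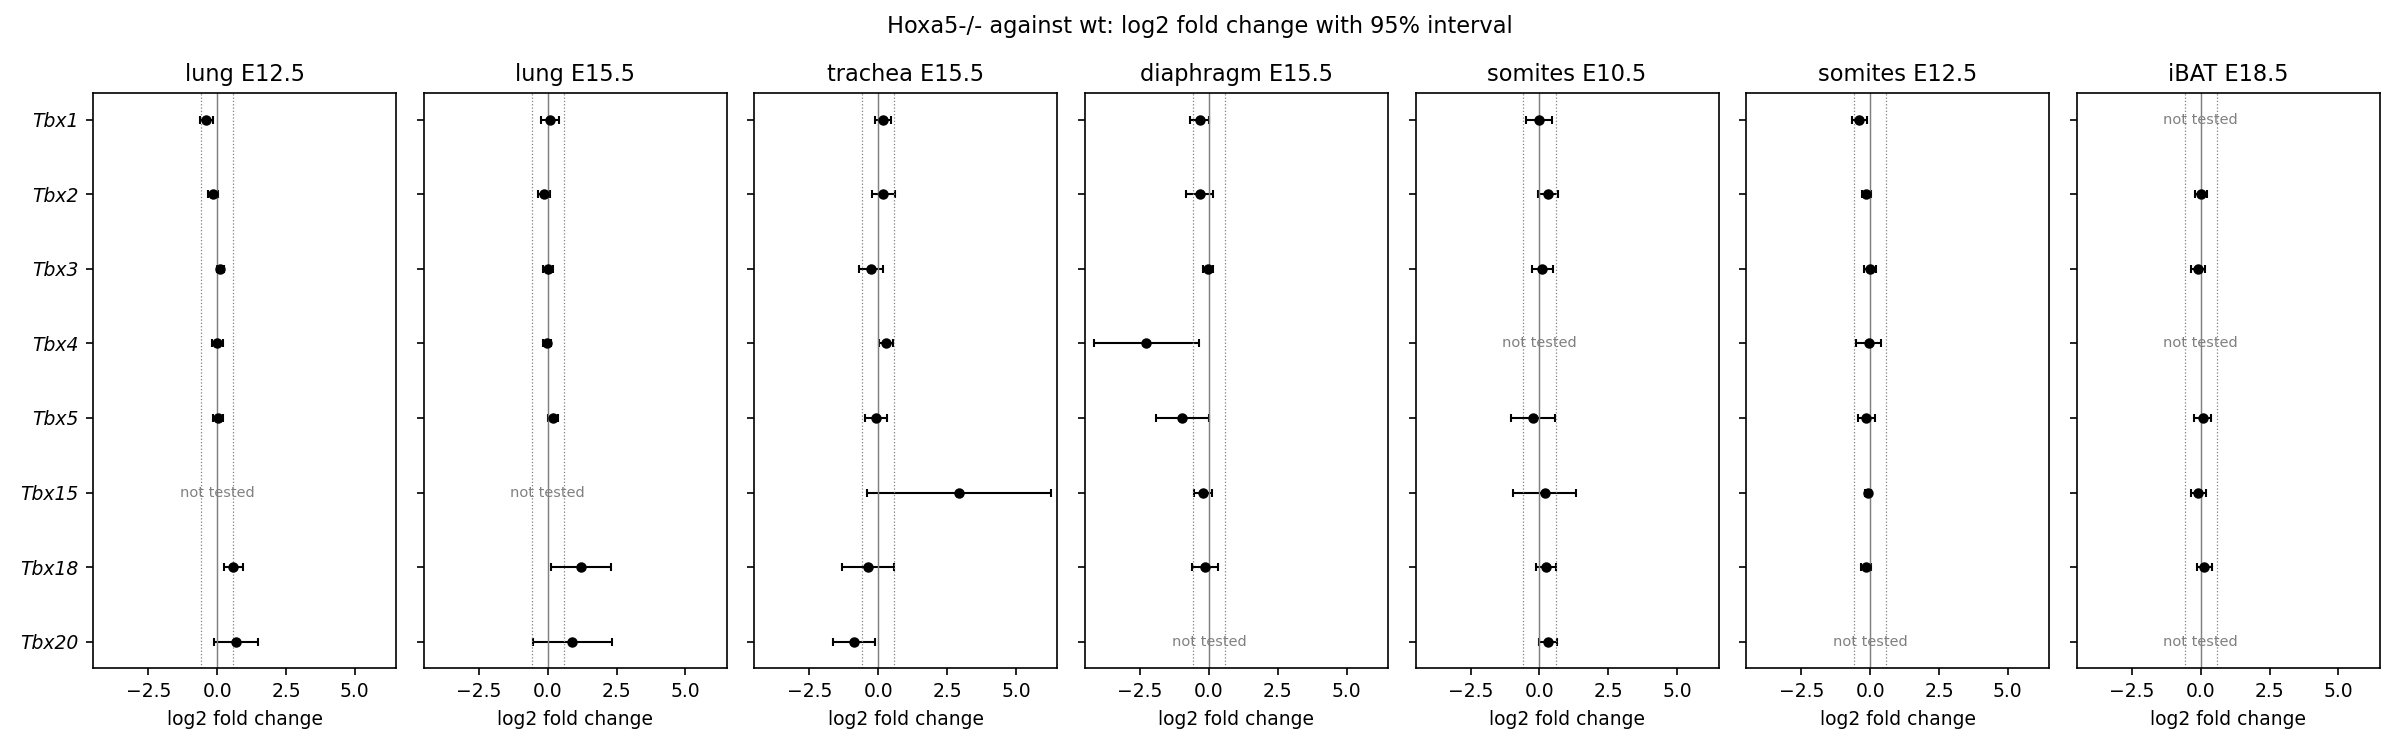
Log2 fold change of *Hoxa5*-/- over wt with its 95% interval for each member in each context. Dotted lines mark a 1.5-fold difference, and members below the TPM minimum are marked as not tested. In these edgeR fits no member was called, and the intervals are widest for *Tbx15* in trachea (-0.40 to 6.26) and *Tbx4* in diaphragm (-4.18 to -0.37). DESeq2 called *Tbx18* in lung at E12.5.

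In lung at E12.5, *Tbx18* was higher and *Tbx1* lower in *Hoxa5*-/- without passing edgeR's adjustment. *Tbx18* had 12.6, 10.7, 7.98 and 7.65 TPM in wt and 12.3, 15.7, 15.1 and 15.4 TPM in *Hoxa5*-/- libraries, a difference of 0.58 (SE 0.16, 95% interval 0.24 to 0.93, adjusted p = 0.329). Of the *Hoxa5*-/- libraries 3 lay above all wt libraries and 1 among them. DESeq2 gave 0.59 with an adjusted p of 0.0358. Mesothelial markers summed to 136 to 152 TPM in wt and 124 to 151 TPM in *Hoxa5*-/-, and *Upk3b* was the most abundant in every library. Cartilage markers were at 155 to 177 TPM in wt and 195 to 224 TPM in *Hoxa5*-/-, and brown adipocyte markers at 11.5 to 12.9 TPM and 15.4 to 17.3 TPM, both without overlap, and their part in the *Tbx18* and *Tbx1* values was not tested. *Tbx1* had 29.7, 28.8, 35.5 and 30.7 TPM in wt and 17.1, 27.2, 23.1 and 28.1 TPM in *Hoxa5*-/-, a difference of -0.39 (SE 0.11, 95% interval -0.64 to -0.14, adjusted p = 0.369). Its lowest value was in the library rich in blood genes. Without that library *Tbx1* was at -0.30 (adjusted p = 0.363) and *Tbx18* at 0.61 (adjusted p = 0.288).

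Most lung members with high levels gave narrow intervals that held 0. In lung at E12.5 the 95% interval of the difference was -0.18 to 0.21 for *Tbx4*, -0.13 to 0.21 for *Tbx5*, -0.02 to 0.26 for *Tbx3* and -0.33 to 0.04 for *Tbx2*, all inside a 1.5-fold change. At E15.5 it was -0.17 to 0.13 for *Tbx4*, -0.19 to 0.20 for *Tbx3* and -0.33 to 0.09 for *Tbx2*. *Tbx5* stood at 0.21 (SE 0.08, 95% interval 0.03 to 0.38, which leaves out 0, adjusted p = 0.721), from 137, 123, 112 and 130 TPM in wt and 159, 157, 133 and 98.1 TPM in *Hoxa5*-/-. The last of these is the library with 36.7% of its TPM in 10 genes, which also had the lowest *Tbx2* (290 TPM against 552 to 576) and *Tbx4* (185 TPM against 313 to 325) of its group. On the TMM-scaled CPM of the fit, which does not correct for length, that library was among its group for *Tbx5* (165 CPM against 156 to 186) and nearer to it for *Tbx4* (226 CPM against 268 to 278) and *Tbx2* (379 CPM against 505 to 526).

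Low members at E15.5 varied more. *Tbx18* had 0.660, 0.816, 1.67 and 1.45 TPM in wt and 2.68, 1.48, 1.35 and 3.75 TPM in *Hoxa5*-/- lung, a difference of 1.21 (SE 0.49, adjusted p = 0.742) that was 0.66 (SE 0.38) without *Hoxa5*-/- replicate 4. *Tbx20* had 1.12, 1.51, 2.38 and 1.10 TPM in wt and 2.23, 0.832, 1.18 and 5.18 TPM in *Hoxa5*-/-, at 0.89 (SE 0.64, adjusted p = 0.909), and turned to -0.14 without that library. Cardiac markers summed to 491 TPM in it and to 36.0 TPM in the lowest *Hoxa5*-/- library. Endothelial markers summed to 706 to 868 TPM in wt and 393 to 668 TPM in *Hoxa5*-/- lung at E15.5, without overlap, and the part of either list in these values was not tested.

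In trachea, *Tbx20* gave the lowest fold change of the members, and heart genes were lower beside it. It had 47.2, 57.8, 39.4 and 60.1 TPM in wt and 18.7, 45.7, 31.7 and 15.1 TPM in *Hoxa5*-/-, a difference of -0.89 (SE 0.33, 95% interval -1.64 to -0.14, adjusted p = 0.728). Of the *Hoxa5*-/- libraries 3 lay below all wt libraries. The cardiac list summed to 4124, 5896, 3222 and 5343 TPM in wt and 2471, 3144, 2915 and 1601 TPM in *Hoxa5*-/-, without overlap. *Tbx20* per 1000 TPM of that list was 11.4, 9.81, 12.2 and 11.2 TPM in wt and 7.56, 14.5, 10.9 and 9.41 TPM in *Hoxa5*-/-, with overlap. The part of heart tissue in the *Tbx20* difference was not tested. Without both libraries that stood apart, *Tbx20* was at -1.07 (SE 0.39, adjusted p = 0.312).

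*Tbx15* in trachea rested on 1 library. It had 2.04, 0.812, 0.431 and 0.313 TPM in wt and 0.464, 0.544, 25.5 and 0.382 TPM in *Hoxa5*-/-, at 2.93 (SE 1.46, adjusted p = 0.762). The high value was in the library with 2557 TPM of skeletal muscle markers, of which *Acta1* gave 1805 TPM and all 5 exceeded 1 TPM. Without it and wt replicate 3 the difference turned to -1.18 (SE 0.61, adjusted p = 0.458). *Tbx15* per 1000 TPM of the muscle list was 2.75 to 4.17 TPM in wt trachea, 5.23 to 10.3 TPM in *Hoxa5*-/- trachea and 5.58 to 9.56 TPM in diaphragm. The part of muscle tissue in the *Tbx15* level was not tested. *Tbx4* stood at 0.28 (SE 0.11, adjusted p = 0.736), from 70.0, 50.3, 65.9 and 58.6 TPM in wt to 80.4, 78.1, 63.4 and 77.0 TPM in *Hoxa5*-/-. The other 5 members of the trachea lay between -0.38 (*Tbx18*) and 0.18 (*Tbx2*). *Tbx2* was at 0.34 (SE 0.11, adjusted p = 0.280) without *Hoxa5*-/- replicate 3, and *Tbx18* turned to 0.17 without wt replicate 2.

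**Figure D4:**
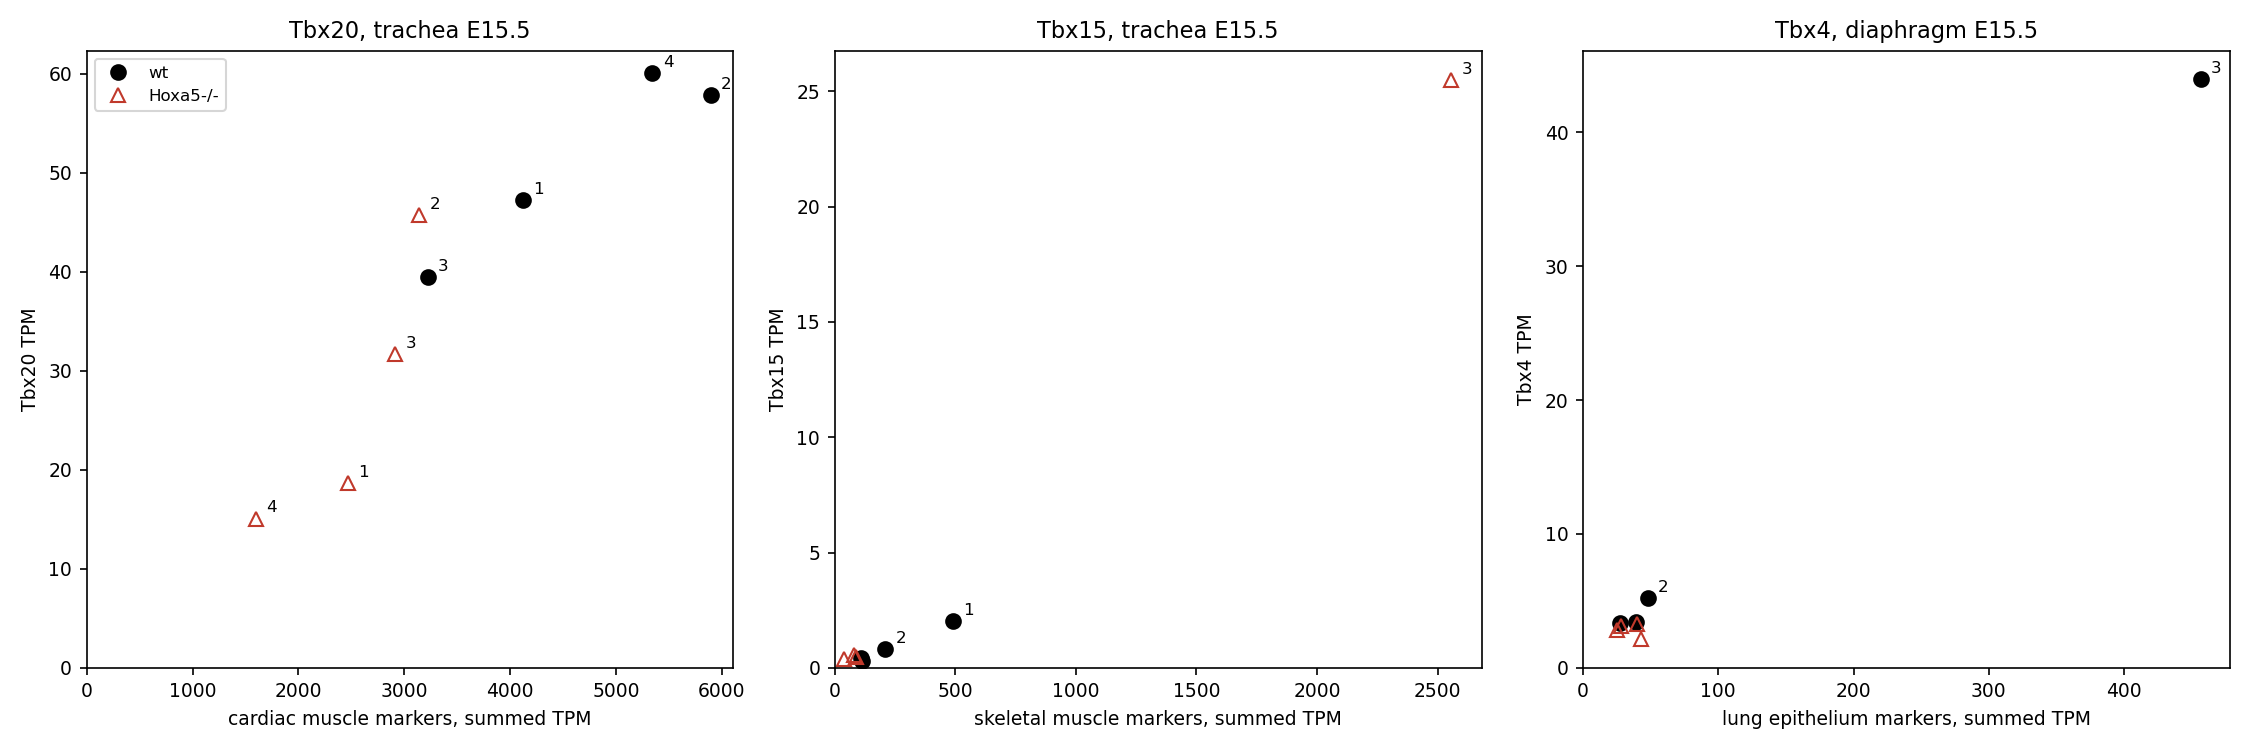
*Tbx20* against the summed cardiac muscle list and *Tbx15* against the summed skeletal muscle list in trachea, and *Tbx4* against the summed lung epithelium list in diaphragm, in TPM per library on linear axes from 0, with replicate numbers beside all *Tbx20* points and beside the highest points of *Tbx15* and *Tbx4*. Black circles are wt and red triangles *Hoxa5*-/-. *Hoxa5*-/- trachea replicate 3 (25.5 TPM of *Tbx15*) and wt diaphragm replicate 3 (44.0 TPM of *Tbx4*) lie at the far end of their marker axes.

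In diaphragm no member passed edgeR's adjustment when the context was fitted alone, though 1 fit for all libraries of the centre called *Tbx4*. The differences of *Tbx4*, *Tbx5* and *Tbx2* rested mainly on 1 wt library, while *Tbx3* was at -0.04. *Tbx4* had 3.45, 5.19, 44.0 and 3.35 TPM in wt and 3.27, 2.81, 2.14 and 3.13 TPM in *Hoxa5*-/-, a difference of -2.28 (SE 0.84, 95% interval -4.18 to -0.37, adjusted p = 0.296). Without wt replicate 3 it was -0.50 (SE 0.21, adjusted p = 0.292), and the groups still did not overlap. *Tbx4* per 1000 TPM of the lung epithelium list was 87.9 to 124 TPM in wt and 49.4 to 113 TPM in *Hoxa5*-/- diaphragm. In the 7 other libraries that list was led by *Id2*, which many tissues express, at 23.3 to 42.6 TPM, and *Sftpd* was at 0 in 3 of them. *Tbx5* had 6.11, 9.82, 24.1 and 5.90 TPM in wt and 7.51, 5.33, 4.89 and 5.67 TPM in *Hoxa5*-/-, at -0.96 (SE 0.42, adjusted p = 0.381) and at -0.32 without wt replicate 3. *Tbx2* had 69.9, 77.4, 147 and 66.1 TPM in wt and 75.4, 70.6, 70.8 and 67.4 TPM in *Hoxa5*-/-, at -0.34 (SE 0.22) and at -0.02 without that library. *Tbx15*, the leading member of the diaphragm, had 133, 133, 102 and 146 TPM in wt and 115, 124, 85.8 and 121 TPM in *Hoxa5*-/-, at -0.22 (SE 0.15, adjusted p = 0.575) and at -0.11 without *Hoxa5*-/- replicate 3, the library with cartilage markers. *Tbx1* had 59.6, 54.9, 49.9 and 59.4 TPM in wt and 53.2, 48.7, 31.2 and 45.9 TPM in *Hoxa5*-/-, at -0.33 (SE 0.15, adjusted p = 0.409) and at -0.19 without that library. Other marker lists also differed without overlap. Limb and girdle mesenchyme markers summed to 61.0 to 75.1 TPM in wt and 52.2 to 57.5 TPM in *Hoxa5*-/- diaphragm, neural markers to 15.02 to 32.3 TPM and 6.86 to 9.57 TPM, and somite markers to 88.5 to 94.7 TPM and 101 to 137 TPM. The part of these in the T-box values was not tested.

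In somites at E10.5, *Tbx20* had 1.59, 1.58, 1.51 and 1.65 TPM in wt and 1.82, 2.37 and 1.87 TPM in *Hoxa5*-/-, at 0.30 (SE 0.15, adjusted p = 0.397). Endothelial markers there summed to 133 to 165 TPM in wt and 167 to 188 TPM in *Hoxa5*-/-, also without overlap, and their part in the *Tbx20* value was not tested. *Tbx15* had 4.75, 5.77 and 0.583 TPM in *Hoxa5*-/-, so that 1 of the 3 libraries lay below all wt and the other 2 above them (0.19, SE 0.52). At E12.5 *Tbx1* had 33.7, 31.9, 22.1 and 23.6 TPM in wt and 21.1, 20.4, 22.4 and 21.1 TPM in *Hoxa5*-/-, at -0.39 (SE 0.12, adjusted p = 0.999). *Tbx15* there had a 95% interval of -0.20 to 0.02. In iBAT *Tbx15* had 11.5, 9.46, 9.42, 8.94 and 11.2 TPM in wt and 11.2, 12.01, 8.77, 7.02 and 7.29 TPM in *Hoxa5*-/- (-0.09, 95% interval -0.35 to 0.18), and *Tbx2* an interval of -0.20 to 0.23. *Tbx3*, *Tbx5* and *Tbx18* lay between -0.09 and 0.14 in iBAT.

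Whether the effect of the *Hoxa5* mutation on a member differed between contexts was tested as an interaction within each centre's set. By edgeR 0 members were called in any of the 6 interactions, and DESeq2 called 0 of those it gave an adjusted p, where it called 0.0961%, 0.296%, 1.61%, 1.86%, 0.0833% and 0.01% of all genes in the order below. Of all genes 0.0267% were called between lung ages, 0.00502% between trachea and lung, 0.73% between diaphragm and lung, 0.439% between diaphragm and trachea, 0.0147% between somite stages and 0.0% between iBAT and somites. The shares with an unadjusted p under 0.05 were 5.25%, 5.04%, 8.46%, 9.07%, 14.3% and 2.57%. An unadjusted p under 0.05 was found for *Tbx1* between lung ages (0.47, adjusted p = 0.930) and for *Tbx2* between somite stages (-0.45, adjusted p = 0.327). Between trachea and lung it was found for *Tbx4* (0.30), *Tbx18* (-1.59) and *Tbx20* (-1.73), each with an adjusted p of 0.967. Without *Hoxa5*-/- lung replicate 4 at E15.5, *Tbx18* was at -1.04 and *Tbx20* at -0.74. Between diaphragm and lung it was found for *Tbx4* (-2.26), *Tbx5* (-1.17), *Tbx15* (-1.32) and *Tbx18* (-1.34), with adjusted p of 0.414 to 0.496. *Tbx15* passed the TPM minimum only through diaphragm, and its lung side rests on 1 to 14 reads per library. Without wt diaphragm replicate 3, *Tbx4* was at -0.49 and *Tbx5* at -0.54, and without *Hoxa5*-/- lung replicate 4, *Tbx18* was at -0.79. Between diaphragm and trachea it was found for *Tbx4* (-2.53, adjusted p = 0.330) and *Tbx15* (-3.19, adjusted p = 0.522). *Tbx4* was at -0.77 without wt diaphragm replicate 3, and *Tbx15* turned to 0.71 without *Hoxa5*-/- trachea replicate 3. None was found between iBAT and somites.

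The genes that act with the members or are known as their targets were followed in 5 lists. The list of *Tbx4* and *Tbx5* (11 genes, among them *Fgf10*, *Wnt2*, *Foxf1*, *Nkx2-5* and *Gata4*), that of *Tbx2* and *Tbx3* (10 genes, among them cell cycle inhibitors) and that of *Tbx15* and *Tbx18* (13 genes, among them *Pax1*, *Pax3* and *Dll1*) had 0 genes called between genotypes in any of the 7 contexts by edgeR. An unadjusted p under 0.05 was found for at most 5 of 9 tested genes of the first list, in diaphragm (13% of all genes), 3 of 9 of the second, in trachea (6.7%), and 4 of the third, out of 12 in diaphragm and 8 in lung at E15.5 (6.32%). DESeq2 called 1 gene of each list in diaphragm and 1 of the last in lung at E12.5. The list of *Tbx1* (12 genes) had 1 of 11 tested, lower in diaphragm (0.594% of all genes called), and that of *Tbx20* (10 genes) 1 of 8, lower in lung at E15.5 (0.124%). An unadjusted p under 0.05 was found for at most 5 genes of the *Tbx1* list, out of 11 in diaphragm (13% of all genes) and 12 in E10.5 somites (12.7%), and for at most 4 of 8 of the *Tbx20* list, in lung at E15.5 (6.32%). DESeq2 called 1 gene of the *Tbx1* list in lung at E12.5, 2 in lung at E15.5 and 1 in diaphragm, and 1 of the *Tbx20* list in each of trachea and both lung ages, where its shares of all genes were 0.462% (E12.5 lung), 0.467% (E15.5 lung), 2.25% (diaphragm) and 0.271% (trachea). The gene of the *Tbx1* list was *Tcf21*, a mesenchymal transcription factor, at 12.2, 24.7, 34.2 and 4.60 TPM in wt and 2.07, 1.28, 1.46 and 1.56 TPM in *Hoxa5*-/- diaphragm, a change of -3.55 (SE 0.56, adjusted p = 0.0314). All wt libraries lay above all *Hoxa5*-/- libraries, and it was called in 2 of the 8 fits that leave out 1 library. That of the *Tbx20* list was *Casz1*, a zinc finger factor that partners *Tbx20* in the heart, at 9.29, 9.11, 10.54 and 8.47 TPM in wt and 6.22, 5.73, 6.64 and 3.85 TPM in *Hoxa5*-/- lung, a change of -0.65 (SE 0.09, adjusted p = 0.0355). It was called in 1 of 8 such fits. Its lowest value was in *Hoxa5*-/- replicate 4, the library with 36.7% of its TPM in 10 genes. Endothelial markers summed to 706 to 868 TPM in wt and 393 to 668 TPM in *Hoxa5*-/- lung at E15.5, without overlap. Their part in the *Casz1* value was not tested. *Foxf1*, a mesenchymal factor of the lung, had 15.3, 28.9, 41.4 and 9.37 TPM in wt and 3.90, 3.81, 6.88 and 5.39 TPM in *Hoxa5*-/- diaphragm and was not called by edgeR (-2.23, adjusted p = 0.0696), though by DESeq2 (adjusted p = 3.95e-06). As interactions, edgeR called *Tcf21*, *Foxf1* of the *Tbx4* and *Tbx5* list and Foxc1, a forkhead factor of the *Tbx1* list, between diaphragm and lung (0.73% of all genes), at -3.45 (adjusted p = 0.0200), -2.07 (adjusted p = 0.0475) and -1.43 (adjusted p = 0.0356), and *Tcf21* between diaphragm and trachea (0.439%), at -3.32 (adjusted p = 0.0188). Of the 16 fits that leave out 1 library, 13, 1 and 3 called the first 3, and 15 the last. Without wt diaphragm replicate 3, *Foxf1* was at -1.67 (adjusted p = 0.0590) and *Tcf21* was called in both. For *Tcf21* and *Foxf1* the highest wt value was in the library with lung markers, and *Tcf21* was still called without it. As interactions between diaphragm and lung, DESeq2 called 1 gene of the *Tbx4* and *Tbx5* list, 1 of the *Tbx2* and *Tbx3* list and 3 of the *Tbx1* list. Between diaphragm and trachea it called 1, 2 and 1 of these lists. Between trachea and lung it called 1 gene of the *Tbx1* and 1 of the *Tbx20* list, where edgeR called 0. Its shares of all genes are given above. *Myl7*, an atrial myosin light chain, had 2883, 4001, 2377 and 4009 TPM in wt and 1729, 2310, 2018 and 1210 TPM in *Hoxa5*-/- trachea, at -0.88 (adjusted p = 0.653 by edgeR, 0.0353 by DESeq2). Some other list genes were higher in *Hoxa5*-/- without overlap and not called by edgeR with all libraries. How many list genes did not overlap in either direction is not given here. *Gja5* had 16.2 to 20.4 TPM in wt and 24.5 to 51.4 TPM in *Hoxa5*-/- diaphragm, where 6.87% of all genes did not overlap. In lung at E15.5, where 2.96% of all genes did not overlap, *Foxc1* had at most 1.74 TPM in wt and at least 2.24 TPM in *Hoxa5*-/-. *Prrx1* there had at most 8.36 TPM in wt and at least 8.99 TPM in *Hoxa5*-/-, but overlapped at E12.5. Of the 8 fits that leave out 1 library, 1 called *Gja5* and 1 *Foxc1*.

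Between wt tissues these lists differed widely. In trachea against lung, 6 of 8 tested genes of the *Tbx20* list were higher and 2 lower (20.1% and 10.1% of all genes), led by *Hand2* (6.26), *Myl7* (5.37) and *Tnnt2* (5.08), and the list's median was 3.79 against 0.02 for all genes. *Myl7* is also in the cardiac muscle marker list, which was at 3222 to 5896 TPM in wt trachea and 60.1 to 228 TPM in wt lung, and the part of heart tissue in the *Tbx20* list was not tested. In the *Tbx4* and *Tbx5* list 4 of 10 were higher and 4 lower, with the cardiac factors *Nkx2-5* (5.23) and *Gata4* (3.10) higher and *Wnt2*, a signal of the lung mesenchyme, lower (-3.40). *Nkx2-5* is in the cardiac muscle marker list too, and the part of heart tissue in these values was not tested. In diaphragm against lung, 8 of 11 tested genes of the *Tbx1* list were higher and 1 lower (20.9% and 15.6% of all genes), led by the muscle factors *Myf5* (7.64) and *Msc* (6.88). From E10.5 to E12.5 in somites, 7 of 11 genes of the *Tbx4* and *Tbx5* list rose and 2 fell, against 24.1% and 18.4% of all genes. In the *Tbx15* and *Tbx18* list 3 of 13 rose, a share near that of all genes, and 5 fell, with the segmentation and muscle precursor genes *Pax3* (-4.64), *Dll1* (-2.51) and *Uncx* (-2.36) the lowest. In iBAT against somites, all 13 genes of the latter list were lower (35.3% of all genes).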

How the data were processed

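Per the submitters' processing notes and the study's methods, adapters were removed with Trim Galore (0.6.5) and reads were aligned by the authors to GRCm39 with STAR (2.7.9a), with gene models from the deposited curated annotation, and counted per gene with featureCounts (2.0.3). The deposited tables hold raw counts and TPM, and TPM values recomputed from the counts differed by at most 2.9e-11. Gene names of the tables differed in 2573 rows, only in the hyphen or underline character, and were given 1 spelling. No library pair held identical values. The members and lists were chosen with earlier results of these data known.

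From the deposited counts, edgeR (4.0.16, R 4.3.3) fitted the groups of each comparison with TMM over all genes with a mean of at least 1 TPM in either group, and quasi-likelihood tests were adjusted by Benjamini-Hochberg over all of them. A call required a difference of 1.5-fold besides an adjusted p under 0.05, an interaction the p alone. Alternatives were DESeq2 (1.42.0), other size factors, filters and fold minimum, all libraries in 1 fit, the replicate number as a block, the other genotype, and each library left out. The fits were tested on simulated data. Summaries and plots used Python (3.11.15), pandas (2.3.3), numpy (2.4.6) and matplotlib (3.10.9).

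Named were the members, *Hoxa5*, overlapping genes, the 3 genes most like each member, and per list and comparison up to 3 called genes with the largest change, or up to 2 where none was called, some of which are left out of the text. Same-numbered wt and *Hoxa5*-/- iBAT libraries deviated together (5 pairs, r of 0.13 to 0.38), as did wt trachea and lung at E15.5 (4 pairs, 0.20 to 0.54). The block changed no member's call there, nor did the number shared by the iBAT library names as a block, and of the lists it called 5 in place of 4 genes of that of *Tbx2* and *Tbx3* between trachea and lung. Where this pairing comes from is not given in the sources used here.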

Additional observations from a re-analysis of the deposited data

Results flagged for a closer look

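In 7 of 87 groups of 4 or 5 libraries, 1 library lay far outside the others for a member, by a rule that chance meets in about 1 of 20 groups. *Tbx2* was at 125 TPM in *Hoxa5*-/- trachea replicate 3 (213 to 217 TPM in the others), 290 TPM in *Hoxa5*-/- lung replicate 4 at E15.5 (552 to 576 TPM) and 147 TPM in wt diaphragm replicate 3 (66.1 to 77.4 TPM). *Tbx4* was at 185 TPM in the same lung library (313 to 325 TPM, but 226 against 268 to 278 CPM on the TMM scale) and 44.0 TPM in the same diaphragm library (3.35 to 5.19 TPM). *Tbx5* was at 55.5 TPM in wt trachea replicate 3 (88.1 to 89.3 TPM), and *Tbx15* at 25.5 TPM in *Hoxa5*-/- trachea replicate 3 (0.382 to 0.544 TPM). All 4 libraries also stood apart by tissue markers or by the share of their 10 most abundant genes, as given above, and the part of these in the T-box values was not tested.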

How the results depend on the processing

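Some member calls depended on the processing, and of 2242 member values under the alternatives 84 had another sign, none of them called. In lung at E12.5 DESeq2 called 1 member between genotypes (*Tbx18*), and in diaphragm 1 fit for all libraries of the centre called 1 (*Tbx4*, -2.24, adjusted p = 0.0073). Between lung ages the count was 2 with DESeq2 (*Tbx20* at 0.96) and 5 without a fold minimum, and 1 to 2 with a library left out. Between diaphragm and trachea it was 5 in the *Hoxa5*-/- libraries, 5 without replicate 3 of both wt groups (an alternative chosen after seeing the data), and 3 to 5 with a library left out (5 without wt diaphragm replicate 3). The somite interaction had 0 to 1, with *Tbx2* called (-0.57, adjusted p = 0.0405) without wt E10.5 replicate 3. Over all genes, the fits of this interaction that leave out 1 library called between 2 and 2580. At a limit of 5 TPM, 4 members were expressed in somites at E10.5 and 2 in iBAT. With a pseudocount of 0.1, 15 of the 24 most like genes were shared. Of 139 results 37 turned under some alternative. Among them were *Tbx15* between genotypes in trachea (-1.18 without both libraries that stood apart), *Tbx18* there (0.17 without wt replicate 2), *Tbx20* in lung at E15.5 (-0.14 to 1.21 with a library left out), *Tbx5* and *Tbx15* in somites at E10.5 (0.11 without wt replicate 2 and -0.30 without *Hoxa5*-/- replicate 2), *Tbx1* in *Hoxa5*-/- libraries (0.24 between lung ages, -0.24 between diaphragm and trachea, -0.35 between somite stages), *Tbx1* between wt somite stages (-0.078 to 0.11 with a library left out) and these interactions: *Tbx20* between lung ages (-0.82 without *Hoxa5*-/- E15.5 replicate 4), *Tbx15* between trachea and lung (-2.46 without the 3 libraries that stood apart, chosen after seeing the data), *Tbx2* between diaphragm and lung (0.098 without wt diaphragm replicate 3), *Tbx15* between diaphragm and trachea (-3.90 to 0.71, the latter without *Hoxa5*-/- trachea replicate 3), *Tbx18* between these (-0.28 without wt trachea replicate 2) and *Tbx15* between somite stages (0.19 without *Hoxa5*-/- E10.5 replicate 2). With CPM in place of TPM, 7 of 8 members kept their highest context (*Tbx1* moved to diaphragm) and 3 of 8 the full order. The causes were not tested beyond the libraries named. DESeq2 gave no adjusted p for *Tbx4* in the diaphragm comparisons and interactions, nor for *Tbx15* between trachea genotypes and in both trachea interactions.

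With the replicate number as a block, 0 members were called between genotypes in every context, and the block changed 1 other count: 4 members were called between diaphragm and trachea, where *Tbx4* was added. The numbers did not pair these samples (correlations of -0.11 to 0.13). Of the gene lists, the block called 1 gene of the *Tbx4* and *Tbx5* list, 2 of the *Tbx2* and *Tbx3* list and 1 of the *Tbx15* and *Tbx18* list between diaphragm genotypes and 2 of the *Tbx1* list in lung at E15.5, against 0 without it. Not every same-numbered pair deviated together there, with correlations of -0.05 to 0.63 in diaphragm and -0.20 to 0.68 in lung. As interactions between trachea and lung, the block called 1 gene of each of the *Tbx1* and *Tbx20* lists, against 0. Between diaphragm and lung it called 3 genes of the *Tbx4* and *Tbx5* list and 3 of the *Tbx1* list, against 1 and 2. It also called 1 gene of each remaining list there, against 0. The shares of all genes called with the block are not given here, so these list counts cannot be set against them. Over all genes, leaving out 1 library moved the number called between genotypes from 1 to 386 in somites at E10.5 and from 30 to 139 in diaphragm, and the somite interaction from 2 to 2580. The number ran from 5 to 37 in lung at E15.5 and from 5 to 14 in lung at E12.5. It ran from 63 to 222 for the interaction of diaphragm with lung and from 49 to 179 for that with trachea. The shares of all genes given beside these calls move with the numbers. Depth limits *Tbx15* in lung and *Tbx1*, *Tbx4* and *Tbx20* in iBAT, which rested on few reads or none.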

Other observations

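Of the other 9 T-box genes of the tables, 6 stayed under 1 TPM on average in every group. *Mga*, a partner of Max with a T-box, was the most abundant, with wt means of 38.0 TPM in diaphragm, 42.1 TPM in trachea and 44.1 TPM in lung at E15.5. T (brachyury), a gene of the early mesoderm and tail bud, had 5.03 TPM in wt somites at E10.5 and 1.53 TPM at E12.5, a log2 change of -1.77 (adjusted p = 1.37e-05, edgeR). Between genotypes 2 or 3 of the 9 genes were tested in each context. Of those tested edgeR called 0, 0 had an unadjusted p under 0.05, and DESeq2 called 0.

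The protein-coding genes with the pattern most like each member, by Pearson's r of log2(mean TPM + 1) over the 14 groups among 15890 genes, were *Mafg*, *Epdr1* and *Shisa4* for *Tbx1* (r of 0.993 to 0.988) and *Lxn*, *Tbx4* and *Plekhd1* for *Tbx2* (0.984 to 0.978). They were *Ednra*, *Klf16* and *Gid8* for *Tbx3* (0.991 to 0.984), and *Tbx2*, *Rnf43* and *Nkx2-1* for *Tbx4* (0.983 to 0.979), so that *Tbx2* and its neighbour *Tbx4* were in each other's lists. They were *Plcb1*, *Rasgrp1* and *Cdk6* for *Tbx5* (0.980 to 0.970), *Prr32*, *Myot* and *Cacng1* for *Tbx15* (0.965 to 0.956), *Gpr17*, *Tmem200c* and *Baalc* for *Tbx18* (0.918 to 0.912) and *Fam83e*, *Kcnj5* and *Fam3d* for *Tbx20* (0.986 to 0.974). The 14 groups share tissues and centres between genotypes and are not independent points.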
